A study of Mus musculus with 8 samples.

Results

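The genes of the platelet-derived growth factor (PDGF) family were taken as the 6 genes whose Ensembl identifier belongs to Pdgfra, Pdgfrb, Pdgfa, Pdgfb, Pdgfc or Pdgfd, out of 48709 genes in the deposited counts, of which 30608 had at least 1 count. All 6 passed the filter on low counts. RNA sequencing was done on the cortex of 4 control and 4 dcKO_hGFAP-Cre C57BL/6J mice at postnatal day 3 (P3). In the methods this tissue is called dorsal telencephalon (dTel). The dcKO_hGFAP-Cre mice carried BAF155 fl/fl and BAF170 fl/fl together with hGFAP-Cre, a transgene that expresses Cre recombinase from a human GFAP promoter and is known to be active in radial glia of the dTel. Which cells of the tissue had lost the genes was not measured here. The labels call the controls wild type, whereas the methods give them 1 floxed copy of each gene and Cre. BAF155 and BAF170 are scaffolding subunits of the chromatin remodelling BAF complex, and the comparison asks how transcripts differ in the cortex after both are deleted.

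PDGF ligands are secreted as dimers and bind 2 receptor tyrosine kinases, PDGFRα and PDGFRβ, which pair up, phosphorylate each other and switch on the Ras-ERK, PI3K-AKT and phospholipase C pathways. In the developing brain, PDGFRα marks oligodendrocyte precursor cells (OPCs) and some fibroblasts of the meninges, and its ligand PDGF-A, made by neurons and astrocytes, is a mitogen of OPCs. PDGFRβ sits on pericytes and smooth muscle cells of vessels, the mural cells, which are drawn to the endothelium by PDGF-B. PDGF-C and PDGF-D are secreted in a latent form and have to be cleaved before they bind a receptor.

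The sequences just before the annotated starts of Pdgfra, the receptor gene that fell in the mutant, and of Pdgfc and Pdgfd, the ligand genes with positive fold changes, are shown to set the members side by side. They are the 250 bases before the start in RefSeq's annotation of GRCm38.p6 (the assembly of mm10), given 5′ to 3′ on the gene's strand. RefSeq starts for 4 of the 6 members were matched, and Pdgfrb and Pdgfb are named only. Capitals mark the motifs searched on both strands, which were the SOX core ACAAAG, 1 kind of E-box, CAGATG, another kind of E-box with the letters CAGCTG, and the TATA box TATAAA. No motif in these windows overlapped another.
Pdgfra, chr5:75152001-75152250, plus strand: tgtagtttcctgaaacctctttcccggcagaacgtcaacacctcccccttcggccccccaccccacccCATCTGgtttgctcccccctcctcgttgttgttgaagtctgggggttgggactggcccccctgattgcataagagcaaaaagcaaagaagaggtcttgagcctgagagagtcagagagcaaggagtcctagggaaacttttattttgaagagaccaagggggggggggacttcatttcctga
Pdgfc, chr3:81036166-81036415, plus strand: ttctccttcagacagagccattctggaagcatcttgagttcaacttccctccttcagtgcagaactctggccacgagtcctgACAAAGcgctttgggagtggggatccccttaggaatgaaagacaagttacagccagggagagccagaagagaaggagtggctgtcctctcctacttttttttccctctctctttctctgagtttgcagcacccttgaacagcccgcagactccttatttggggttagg
Pdgfd, chr9:6168236-6168485, plus strand: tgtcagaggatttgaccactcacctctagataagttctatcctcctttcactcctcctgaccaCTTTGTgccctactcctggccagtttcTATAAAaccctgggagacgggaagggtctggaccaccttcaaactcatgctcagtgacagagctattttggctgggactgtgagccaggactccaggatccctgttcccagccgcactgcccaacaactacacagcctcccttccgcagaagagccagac
The Pdgfra window held 1 CAGATG, read on the minus strand, and 4 CpG pairs. The Pdgfc window held 1 ACAAAG and 3 CpG pairs, and the Pdgfd window held 1 ACAAAG on the minus strand, 1 TATAAA and 3 CpG pairs. Among 32851 RefSeq promoters of the same length, 16.5% held ACAAAG, 14.4% CAGATG, 13.0% CAGCTG and 12.4% TATAAA, and the median number of CpG pairs was 6. Pdgfa has 2 annotated starts, with 19 and 28 CpG pairs before them, more than in the windows of the other matched members. These Pdgfa windows overlap 1 and 4 GENCODE exons, whereas the other windows overlap 0, so the CpG counts are not of like sequence. A match of these letters is a description and not a binding site.

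Each library held between 21126713 and 32110285 counts, so a gene with 3 counts lay at 0.142 CPM by the total of the shallowest sample and lower in the others. CPM is the read count of a gene scaled to a common library size, here with the TMM factors of edgeR. The deleted genes were lower in dcKO_hGFAP-Cre in every sample, with Smarcc1, which encodes BAF155, at 159 ± 11.2 against 81.2 ± 5.90 CPM and Smarcc2, which encodes BAF170, at 483 ± 14.7 against 283 ± 28.2 CPM (SD, n = 4 each). Of 16525 genes tested, 37.5% had an adjusted p under 0.05, of which 3128 (18.9%) were lower and 3074 (18.6%) higher. The groups did not overlap in CPM for 34.4% of genes, 17.7% with the mutant lower and 16.7% with it higher. With library totals in place of TMM, the all-gene median of log2 fold changes moved from 0.02 to 0.15 and the split became 2102 lower and 4584 higher. Transcripts of other tissue set some mutant libraries apart: the 6 choroid plexus markers summed to 617, 1179, 22.5 and 7.52 CPM in dcKO_hGFAP-Cre replicates 1 to 4 against 2.99 to 13.0 CPM in controls. The 10 meningeal fibroblast markers summed to 438, 96.3, 308 and 21.6 CPM in the mutant and to 163, 60.4, 217 and 78.2 CPM in control replicates 1 to 4. In both groups lane 5 carried replicates 1 and 2, lane 6 carried replicate 3 and lane 7 carried replicate 4.

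Across the 6 members, Pdgfra and Pdgfb fell in dcKO_hGFAP-Cre cortex and none rose, so 2 of 6 were called, beside 37.5% of all genes. These were also the 2 members whose groups did not overlap, beside 34.4% of all genes. The median log2 fold change of the members was -0.30, beside 0.02 for all genes. As tested here, the members' shares called and not overlapping were thus near the background. The count called depends on the setting. With DESeq2, the study's own method, Pdgfra, Pdgfrb, Pdgfa and Pdgfb were lower, 4 of 6, beside 3427 genes lower and 3136 higher. With the sequencing lane as a term the same 4 were lower, beside 3242 genes lower and 3208 higher. All other settings gave 2 or 3 members lower.

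Pdgfra (ENSMUSG00000029231), the gene of PDGFRα, lies on chr5:75152292-75198215 of mm10 on the plus strand. It was the more abundant receptor transcript per kilobase of exon and fell in the mutant. Control replicates 1 to 4 held 149, 142, 130 and 120 CPM. In dcKO_hGFAP-Cre replicates 1 to 4 it was at 105, 97.5, 95.6 and 91.0 CPM. All 4 mutant samples lay below the lowest control, and within both groups lanes 6 and 7 held the lower values. The mean went from 135 ± 12.8 to 97.4 ± 6.01 CPM (SD, n = 4 each), so that the level fell by 28.0% (log2 fold change -0.47, SE 0.08, edgeR adjusted p = 0.00109, exact two-sided permutation p = 0.0286, the smallest that 4 samples against 4 allow). It stayed lower with library totals, at -0.35. In bulk tissue, fewer cells of a type and less RNA per cell cannot be told apart. Exons of Pdgfra share bases with Gm42802, Gm42803 and Mir7025, which held 0, 5 and 1 counts over all 8 samples.

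The OPC markers, from which Pdgfra was left out, moved with it: 11 of 14 were lower and 0 higher, with a median log2 fold change of -0.79. That was 78.6% called, beside 37.5% of all genes. Their summed level was 1649 to 1956 CPM in control and 1221 to 1418 CPM in dcKO_hGFAP-Cre, and no marker was at 0. The largest parts of this sum were Ptprz1, Cacng4 and Vcan. Their control and mutant means were 879 and 640 CPM, 284 and 229 CPM, and 211 and 203 CPM. Gpr17, a receptor of committed precursors, fell by 1.98 on the log2 scale (edgeR adjusted p = 0.000183). Neu4, a sialidase with only 6 to 19 counts per mutant library, fell by 1.89 (edgeR adjusted p = 0.00104). Sox10, a transcription factor of the oligodendrocyte lineage, fell by 1.50 (adjusted p = 9.76e-06) and Matn4, a matrix protein, by 1.36 (adjusted p = 0.000107). Gpr17 (means of 50.6 CPM in control and 12.8 CPM in the mutant) and Sox10 (27.6 and 9.73 CPM) weighed little in the sum. The sum therefore does not show the size of their fall. The part of the OPC markers in the fall of Pdgfra was not tested, nor was that of the meningeal fibroblast markers. Of the latter, 1 of 10 rose (Twist1, a mesenchymal transcription factor, log2 fold change 2.67, edgeR adjusted p = 0.000628) and none fell, with a median of 0.81. Their share called, 10%, was below that of all genes.

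The level of Pdgfra against 2 of these markers was then compared within each sample, as the difference of log2 CPM, of which only the change between groups is read since it is not corrected for length. Pdgfra minus Sox10 was 2.41, 2.42, 2.31 and 2.01 in control and 3.83, 3.39, 2.97 and 3.15 in dcKO_hGFAP-Cre replicates 1 to 4. Every mutant sample lay above every control, and the difference widened by 1.05, from 2.29 ± 0.19 to 3.33 ± 0.37 (SD, n = 4 each, exact two-sided permutation p = 0.0286). Adjusted over the 8 gene pairs compared, the exact permutation p was 0.0762. Since 0.0286 is the smallest p that 4 samples against 4 allow, a pair could not pass this adjustment on its own. The adjusted p therefore cannot decide whether this difference changed. Against Cspg4, which encodes the NG2 proteoglycan of OPCs and pericytes, the difference was 1.84 ± 0.14 in control and 2.22 ± 0.28 in the mutant, with overlapping groups (exact permutation p = 0.0571, adjusted p = 0.114). Cspg4 itself fell by 0.85 on the log2 scale (edgeR adjusted p = 0.000323).

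**Figure D1:**
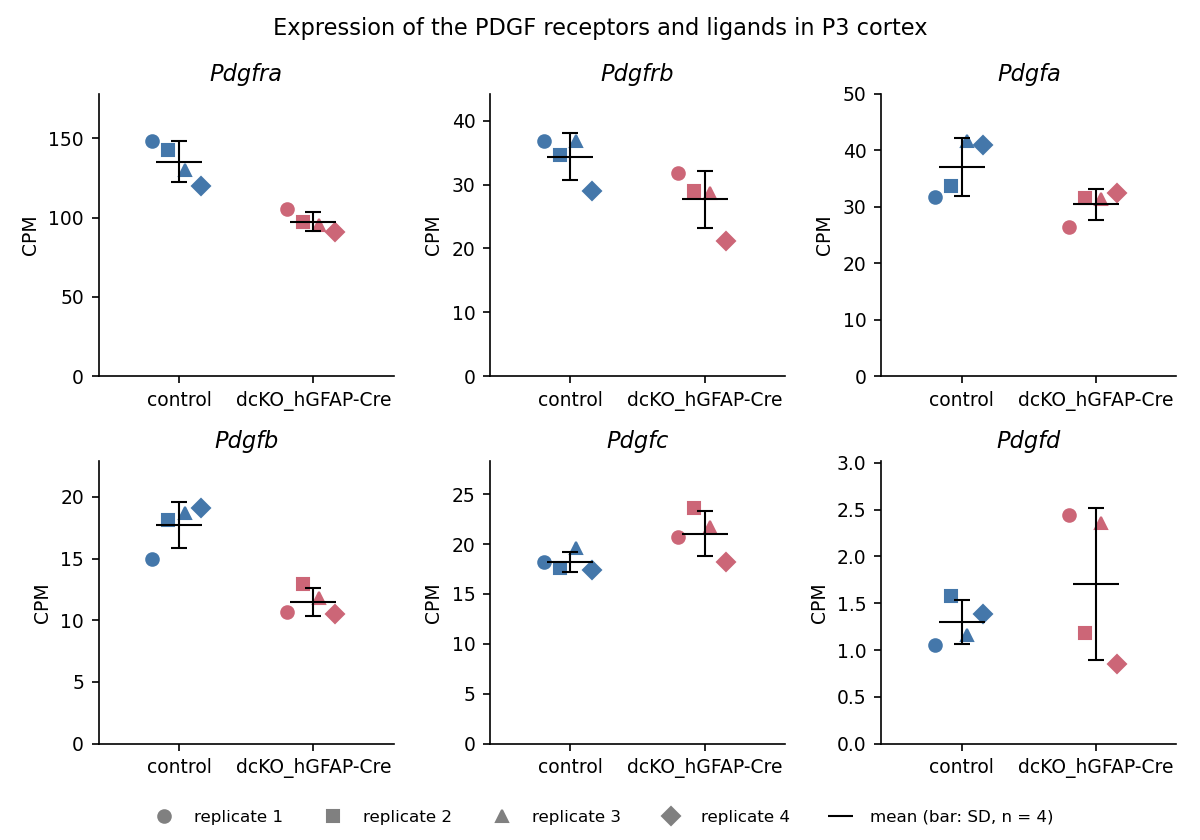
Expression of each PDGF receptor and ligand gene in CPM (vertical axes from 0) in the 4 control (blue) and 4 dcKO_hGFAP-Cre (red) samples, with symbols for replicates 1 to 4, the mean as a line and the SD as a bar. The groups are apart for Pdgfra and Pdgfb and overlap for the other 4 genes.

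Pdgfrb (ENSMUSG00000024620), the gene of PDGFRβ, lies on chr18:61045150-61085061 on the plus strand. Its change did not pass the test. Control replicates 1 to 4 held 36.9, 34.7, 36.9 and 29.02 CPM. Mutant replicates 1 to 4 held 31.8, 28.98, 28.7 and 21.2 CPM. Replicate 4 was lowest in both groups, and 3 of 4 mutant samples lay below all controls, replicate 2 only just. The mean was 34.4 ± 3.71 CPM in control and 27.7 ± 4.51 CPM in dcKO_hGFAP-Cre (SD, n = 4 each; log2 fold change -0.31, SE 0.13, edgeR adjusted p = 0.0702, exact permutation p = 0.0571). The adjusted p was under 0.05 in 4 of 7 other settings of the test, between 0.0166 and 0.269 over all of them.

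Mural cell markers gave a median log2 fold change of 0.00, with 2 of 11 lower and 0 higher. Their share called, 18.2%, was below the 37.5% of all genes. Abcc9, a subunit of a potassium channel of pericytes, fell by 0.33 (edgeR adjusted p = 0.0279), and Notch3, a receptor of mural cells, fell by 0.31 (adjusted p = 0.0243). Their summed level was 231 to 270 CPM in control and 206 to 291 CPM in the mutant, where replicate 4 was lowest, and no marker was at 0. Rgs5, a regulator of G protein signalling, gave 143 and 155 CPM (log2 fold change 0.11, adjusted p = 0.45). Pdgfrb minus Rgs5 on the log2 scale was -1.87, -2.26, -1.92 and -2.17 in control and -2.40, -2.56, -2.47 and -2.52 in mutant replicates 1 to 4. The mutant samples all lay below the controls, with a change of -0.43 (exact permutation p = 0.0286, adjusted over 8 pairs p = 0.0762). As for Sox10, a pair could not pass this adjustment on its own, whatever its separation. The part of mural cell markers in the level of Pdgfrb was not tested.

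The receptor genes were also compared with each other. Pdgfra minus Pdgfrb was 1.98 ± 0.11 in control and 1.83 ± 0.18 in dcKO_hGFAP-Cre on the log2 CPM scale (SD, n = 4 each), and the groups overlapped. The change of -0.15 had an exact permutation p of 0.2 and an adjusted p of 0.267.

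Pdgfa (ENSMUSG00000025856), which encodes PDGF-A, a ligand of PDGFRα, lies on chr5:138976014-138997370 on the minus strand. Its change did not pass the test. In control replicates 1 to 4 it was at 31.7, 33.6, 41.7 and 40.99 CPM. The mutant replicates held 26.4, 31.6, 31.3 and 32.4 CPM. Control replicate 1 lay within the mutant range, and 3 of 4 mutant samples were below all controls. The mean was 36.99 ± 5.10 CPM in control and 30.4 ± 2.70 CPM in the mutant (SD, n = 4 each; log2 fold change -0.28, SE 0.11, edgeR adjusted p = 0.0624, exact permutation p = 0.0571). Of the 7 other settings, 2 gave an adjusted p under 0.05. An antisense gene, 6330403L08Rik, shares 813 exonic bases (26.1%) with Pdgfa and held 3706 counts over the 8 samples. Its own log2 fold change was -0.26 (adjusted p = 0.0676), and since the strand setting of the counting is not given in the sources used here, reads of the pair cannot be told apart. The within-sample difference of Pdgfra and Pdgfa, receptor and ligand, was 1.87 ± 0.33 in control and 1.68 ± 0.22 in dcKO_hGFAP-Cre on the log2 CPM scale (exact permutation p = 0.257, adjusted p = 0.294, n = 4 each).

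Neuron and astrocyte markers stand beside Pdgfa, since both cell types are known to express it. Of 8 neuron markers, 7 were lower and 0 higher (median log2 fold change -0.68), so 87.5% were called, beside 37.5% of all genes. They summed to 7345 to 7991 CPM in control and 5131 to 5610 CPM in the mutant. Neurod6, a transcription factor of excitatory neurons, fell most among them, by 2.04 (edgeR adjusted p = 1.37e-06). Of 10 astrocyte and radial glia markers, 2 (Fgfr3 and Slc1a2) were lower and 0 higher (median -0.50), a share of 20%. They summed to 2092 to 2193 CPM in control and 1341 to 3050 CPM in the mutant, with replicate 3 highest. No marker of either list was at 0, and their part in the level of Pdgfa was not tested.

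Pdgfb (ENSMUSG00000000489), which encodes PDGF-B, the ligand that endothelial cells present to mural cells, lies on chr15:79995874-80014977 on the minus strand. It had the most negative fold change of the members. Control replicates 1 to 4 held 15.0, 18.1, 18.7 and 19.1 CPM. Mutant replicates held 10.6, 12.9, 11.8 and 10.5 CPM. All mutant samples lay below all controls. The mean went from 17.7 ± 1.89 to 11.5 ± 1.13 CPM (SD, n = 4 each), and the level fell by 35.3% (log2 fold change -0.63, SE 0.12, edgeR adjusted p = 0.00148, exact permutation p = 0.0286). With library totals the log2 fold change was -0.51. No exon of another annotated gene overlapped those of Pdgfb.

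Endothelial markers, from which Pdgfb was left out, gave 5 of 11 lower and 0 higher, with a median log2 fold change of -0.48. The share called was 45.5%, beside 37.5% of all genes. Mfsd2a, a lipid transporter of the blood-brain barrier, fell by 0.95 (edgeR adjusted p = 7.2e-05), Pecam1, an adhesion molecule, by 0.65 (adjusted p = 0.00314), Tek, the receptor of angiopoietins, by 0.63 (adjusted p = 0.00908) and Slc2a1, the glucose transporter of the barrier, by 0.54 (adjusted p = 0.00445). Their summed level was 245 to 308 CPM in control and 136 to 230 CPM in dcKO_hGFAP-Cre, with mutant replicate 4 lowest, and no marker was at 0. Cldn5, a tight junction protein, was at 67.5 and 60.7 CPM (log2 fold change -0.16, adjusted p = 0.601). Pdgfb minus Cldn5 was -1.91 ± 0.20 in control and -2.35 ± 0.40 in the mutant on the log2 CPM scale, with overlapping groups (exact permutation p = 0.114, adjusted p = 0.183, n = 4 each). The part of endothelial markers in the fall of Pdgfb was not tested. Neurons also express Pdgfb, and the counts of neuron markers above apply here too.

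The changes of the classical ligands were set against each other. Pdgfa minus Pdgfb was 1.08, 0.89, 1.15 and 1.10 in control and 1.31, 1.28, 1.40 and 1.62 in dcKO_hGFAP-Cre replicates 1 to 4 on the log2 CPM scale. The groups were apart, and the difference rose by 0.35 with an exact permutation p of 0.0286 before adjustment. Adjusted over the 8 pairs, the exact permutation p was 0.0762, and with 4 samples against 4 a pair could not pass this adjustment on its own.

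Pdgfc (ENSMUSG00000028019), which encodes the latent ligand PDGF-C, lies on chr3:81036416-81214040 on the plus strand. Control replicates 1 to 4 held 18.2, 17.6, 19.6 and 17.4 CPM. Mutant replicates held 20.7, 23.6, 21.7 and 18.2 CPM. In the mutant 3 of 4 samples lay above all controls, and replicate 4 lay within their range. The mean was 18.2 ± 0.991 CPM in control and 21.0 ± 2.25 CPM in dcKO_hGFAP-Cre (SD, n = 4 each; log2 fold change 0.21, SE 0.11), which did not pass the test (edgeR adjusted p = 0.137, exact permutation p = 0.0571). With library totals its log2 fold change was 0.33 (edgeR adjusted p = 0.0254), beside the median of 0.15 over all genes in that setting. Gm16000, which shares 147 exonic bases with Pdgfc on the opposite strand, held 9 counts over all samples.

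Pdgfd (ENSMUSG00000032006), which encodes the latent ligand PDGF-D, a ligand of PDGFRβ, lies on chr9:6168584-6378850 on the plus strand. It had the fewest counts of the members, 23 to 69 per library. Control replicates held 1.06, 1.58, 1.16 and 1.39 CPM. Mutant replicates held 2.44, 1.19, 2.35 and 0.845 CPM, so that replicates 1 and 3 lay above all controls and replicate 4 below them. The log2 fold change was 0.39 (SE 0.33, edgeR adjusted p = 0.371, exact permutation p = 0.371, n = 4 each), and a difference was not detectable at this depth and spread. Mutant replicates 1 and 3 were also those with the highest sums of meningeal fibroblast markers, whose part was not tested. Pdgfc minus Pdgfd on the log2 CPM scale was 3.75 ± 0.30 in control and 3.69 ± 0.67 in the mutant (exact permutation p = 0.83 before and after adjustment).

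**Figure D2:**
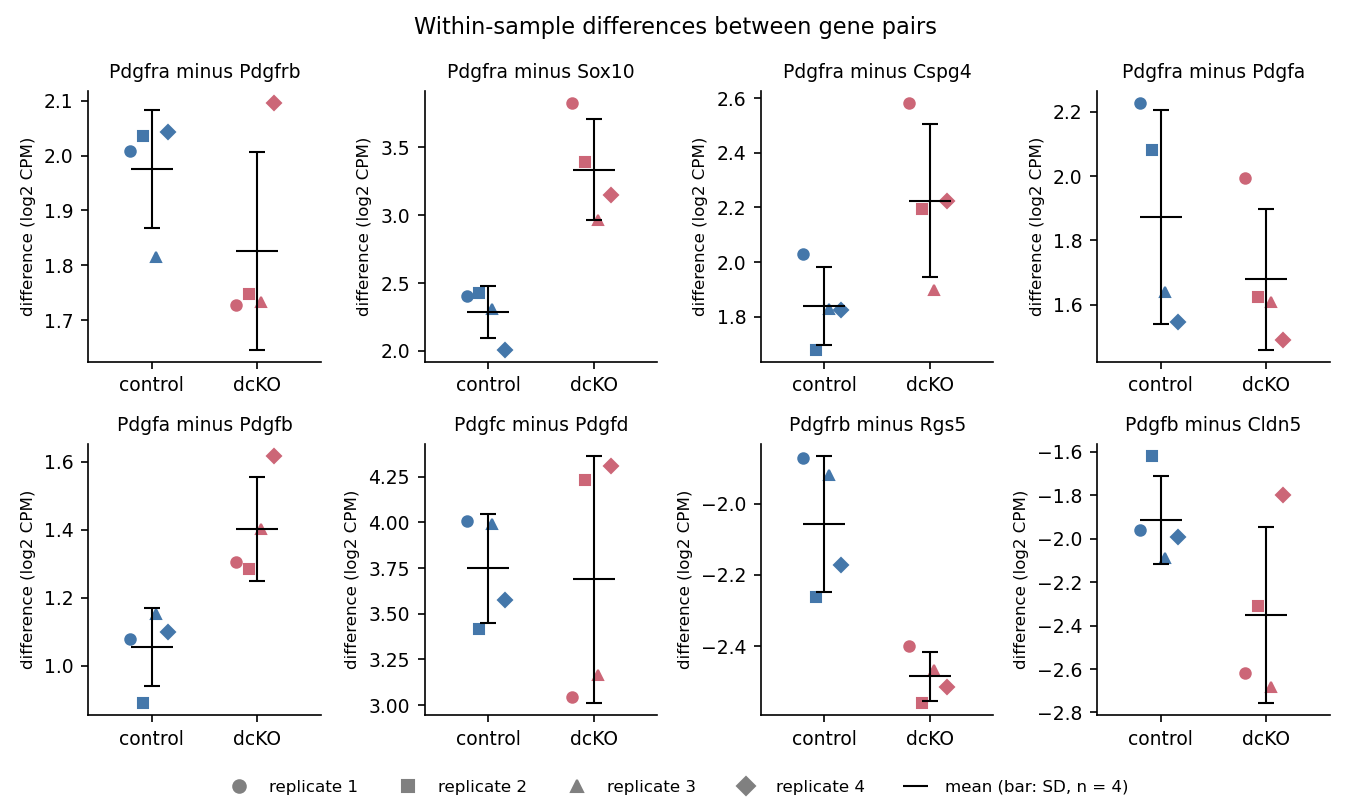
Within-sample differences of log2 CPM for the 8 gene pairs (vertical axes, 1 panel a pair, each with its own range) in control (blue) and dcKO_hGFAP-Cre (red) samples, with symbols for replicates, the mean as a line and the SD as a bar. The groups are apart for Pdgfra minus Sox10, Pdgfa minus Pdgfb and Pdgfrb minus Rgs5. None of the 8 adjusted p-values is under 0.05, which a pair could not reach on its own at this sample size.

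Levels of different members were compared as CPM per kilobase of annotated exon, with exons of all transcripts merged. In control cortex Pdgfra was highest at 13.5 ± 1.28, followed by Pdgfa at 11.9 ± 1.63, Pdgfrb at 6.27 ± 0.677, Pdgfb at 4.26 ± 0.453, Pdgfc at 3.57 ± 0.195 and Pdgfd at 0.411 ± 0.0737 CPM per kilobase (SD, n = 4 each). The ranges of Pdgfra and Pdgfa overlapped, as did those of Pdgfb (3.59 to 4.59) and Pdgfc (3.42 to 3.85), while the other neighbours in this order were apart. The level of Pdgfa is also uncertain, since 26.1% of its exonic bases overlap the antisense gene 6330403L08Rik. In dcKO_hGFAP-Cre the order was Pdgfa at 9.75 ± 0.866, Pdgfra at 9.71 ± 0.599, Pdgfrb at 5.05 ± 0.824, Pdgfc at 4.14 ± 0.442, Pdgfb at 2.76 ± 0.272 and Pdgfd at 0.541 ± 0.257 CPM per kilobase. Here Pdgfc (3.58 to 4.64) lay above Pdgfb (2.52 to 3.11) in every sample, and its range overlapped that of Pdgfrb. With the longest transcript as the length the control order was the same, but Pdgfrb (5.35 to 6.80) and Pdgfb (5.08 to 6.48) then overlapped. In the mutant Pdgfc came before Pdgfrb with that length, with overlapping ranges.

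The makeup of the ligand pool was described on the same scale, with no test. Pdgfa made up 58.8 ± 2.19% of the summed ligand level per kilobase in control and 56.7 ± 3.67% in dcKO_hGFAP-Cre. All ligand shares carry the uncertainty that the antisense overlap brings to the level of Pdgfa. The share of Pdgfb was 20.4 to 22.8% in control and 15.1 to 17.0% in the mutant. For Pdgfc it was 15.8 to 20.2% in control and 21.4 to 25.6% in the mutant. The groups were thus apart for the Pdgfb share, which was lower in the mutant, and for the Pdgfc share, which was higher. Shares of one sum depend on each other, so these are not 2 separate results. In CPM the groups overlapped for Pdgfc, and its change did not pass the test (log2 fold change 0.21, edgeR adjusted p = 0.137). Among the receptors, Pdgfra held 68.3 ± 1.64% in control and 66.0 ± 2.75% in the mutant, with overlapping ranges.

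**Figure D3:**
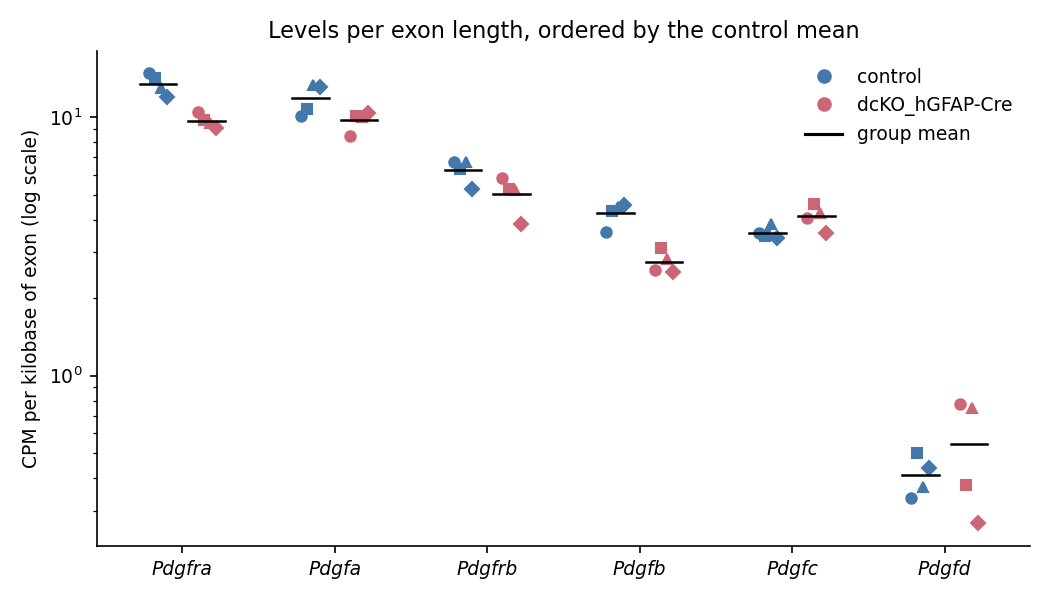
Level of each member in CPM per kilobase of exon (vertical log axis), ordered by the control mean, in control (blue) and dcKO_hGFAP-Cre (red) samples, with the group mean as a line. Pdgfb lies at 4.26 in control and 2.76 in the mutant, and Pdgfc at 3.57 and 4.14.

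The other genes of the pathway were followed along the route of the signal, in 4 lists of named genes. Of 11 genes that process or bind PDGF ligands, 10 were tested, and 3 fell and 0 rose (median log2 fold change -0.28). That was 30% called, beside 37.5% of all genes (18.9% lower and 18.6% higher), and so no more than the background. Nrp1, a co-receptor for several growth factors, fell from 58.4 to 26.2 CPM (log2 fold change -1.16, edgeR adjusted p = 6.83e-06). Furin, the protease that cleaves the precursors of PDGF-A and PDGF-B, fell by 0.32 (adjusted p = 0.0135), and Lrp1, an endocytic receptor that binds PDGFRβ, fell by 0.30 (adjusted p = 0.0108). Plat, which encodes the tissue plasminogen activator that cleaves latent PDGF-C, was at 39.1 and 31.7 CPM (adjusted p = 0.366). With library totals 1 of the 10 was lower and 1 higher, and without mutant replicates 1 and 2 only 1 was lower.

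Of 30 genes acting directly at the receptors, 12 fell and 4 rose (median log2 fold change -0.12), so 53.3% were called, beside 37.5% of all genes. Pik3r1 and Pik3r2, which encode regulatory subunits of PI3K, fell by 0.90 (edgeR adjusted p = 2.07e-05) and 0.64 (adjusted p = 0.000238). Cblb, a ubiquitin ligase, fell by 0.71 (adjusted p = 6.81e-05), and Ptpn1, a phosphatase that acts on PDGF receptors, fell by 0.64 (adjusted p = 0.000114). Among those that rose were the transcription factor Stat5b (log2 fold change 0.72, adjusted p = 0.00156), the adaptor Grb10 (0.62, adjusted p = 0.000471) and the Ras inhibitor Rasa1 (0.28, adjusted p = 0.0294). With library totals 7 were lower and 6 higher.

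Of 23 genes of the Ras-ERK and PI3K-AKT relay, 12 fell and 0 rose (median log2 fold change -0.22). The share called was 52.2%, beside 37.5% of all genes. Spry4, a feedback inhibitor of receptor signalling, fell by 0.91 (edgeR adjusted p = 0.000387), and Dusp6, a phosphatase of ERK, fell by 0.52 (adjusted p = 0.00212). Prkca, a protein kinase C, fell by 0.37 (adjusted p = 0.0242). The count of 12 went to 5 without mutant replicate 1, to 7 without control replicate 3, to 3 with mutant replicates 1 and 2 left out together, and to 3 lower and 1 higher with library totals.

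Among 15 related receptor tyrosine kinases and ligands, 7 fell and 1 rose (median log2 fold change -0.10), or 53.3% called beside 37.5% of all genes. Kit, the receptor of stem cell factor, fell by 0.96 (edgeR adjusted p = 6.09e-06), and Kitl, its ligand, by 0.79 (adjusted p = 6.09e-05). Vegfd, a ligand of the VEGF family, fell by 1.07 (adjusted p = 0.00102), and Flt1, a VEGF receptor, by 0.88 (adjusted p = 0.000202). Csf1r, the receptor of microglial growth factors, rose by 0.65 (adjusted p = 0.00257), but did not pass when mutant replicates 1 and 2 were left out. Of 8 microglia markers, 6 were higher and 0 lower (median 0.86), with sums of 86.9 to 109 CPM in control and 158 to 189 CPM in the mutant. Of the 6 choroid plexus markers, 3 were higher and 0 lower (median 3.48). The shares called in these 2 marker lists were 75% and 50%.

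**Figure D4:**
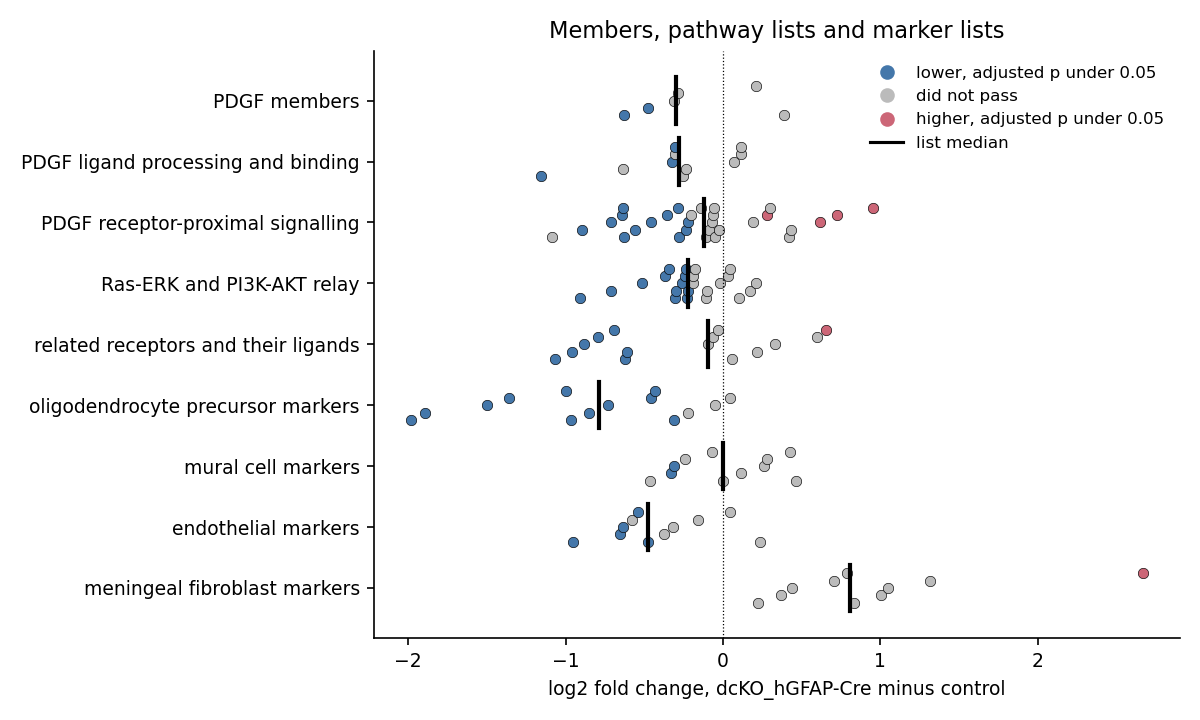
Log2 fold changes (horizontal axis, dcKO_hGFAP-Cre minus control) of the tested genes of the PDGF family, of 4 pathway lists and of 4 marker lists, with 1 point a gene, blue or red where the edgeR adjusted p was under 0.05, and the list median as a line. The medians run from -0.79 for OPC markers to 0.81 for meningeal fibroblast markers, and the member median is -0.30.

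The chromosomal neighbours of the members, the nearest annotated protein-coding gene on each side, did not share one direction. Next to Pdgfra, Gsx2, a homeobox gene of the ventral telencephalon 74.4 kb below it, rose from 1.22 to 2.74 CPM (log2 fold change 1.17, edgeR adjusted p = 0.00291). Kit, 377 kb above Pdgfra, was among the genes that fell. Csf1r lies 15.5 kb above Pdgfrb and rose, while Cdx1 on the other side had too few counts to test. Beside Pdgfa, Prkar1b, a regulatory subunit of protein kinase A at 19.9 kb, fell by 0.46 (adjusted p = 0.000899), and Gm5294 was not tested. Near Pdgfb, Rpl3, a ribosomal protein gene at 62.8 kb, rose by 0.55 (adjusted p = 0.000844), and Cbx7, a Polycomb gene at 24.8 kb, gave 0.47 (adjusted p = 0.0848). The neighbours of Pdgfc, Glrb and Ctso, gave 0.05 and 0.19, and neither passed. Casp12, a caspase gene 796 kb below Pdgfd, rose by 1.55 (edgeR adjusted p = 0.00446), on only 4 to 10 counts per control library. On the other side of Pdgfd, Dync2h1 gave 0.06.

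Genes with the sample profiles most like each member were taken by the smallest root mean square difference of centred log2 CPM over the 8 samples, among 13444 genes. For Pdgfra they were Slc44a1 (0.056), Mboat2 (0.067) and Scarb2 (0.073). For Pdgfrb they were Stard13 (0.074), Robo4 (0.089) and Abcg2 (0.096), for Pdgfa Rnf208 (0.031), Vat1 (0.042) and Trim62 (0.056), and for Pdgfb Rras2 (0.061), Eps8 (0.080) and Rassf3 (0.081). Pdgfc was nearest to Rpl22 (0.048), Cnot8 (0.050) and Idh3g (0.052). No profile came as close to Pdgfd, where P2ry14, Gulp1 and Tmem45a differed by 0.23, 0.23 and 0.25.

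Within lanes, the log2 CPM of Pdgfra differed between mutant and control by -0.52 on lane 5, -0.44 on lane 6 and -0.40 on lane 7. For Pdgfb the differences were -0.49, -0.66 and -0.86. Both were lower in the mutant on every lane. Pdgfrb (-0.24, -0.36 and -0.45) and Pdgfa (-0.18, -0.41 and -0.34) were also lower on lanes 5, 6 and 7, and Pdgfc was higher on each (0.30, 0.15 and 0.07). Pdgfd was higher on lanes 5 and 6 (0.38 and 0.97) and lower on lane 7 (-0.67). Lanes 6 and 7 hold 1 sample of each group, so these values have no test. Without mutant replicates 1 and 2, which had the highest choroid plexus sums, the log2 fold change was -0.54 for Pdgfra (edgeR adjusted p = 0.0113) and -0.67 for Pdgfb (adjusted p = 0.0139).

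**Figure D5:**
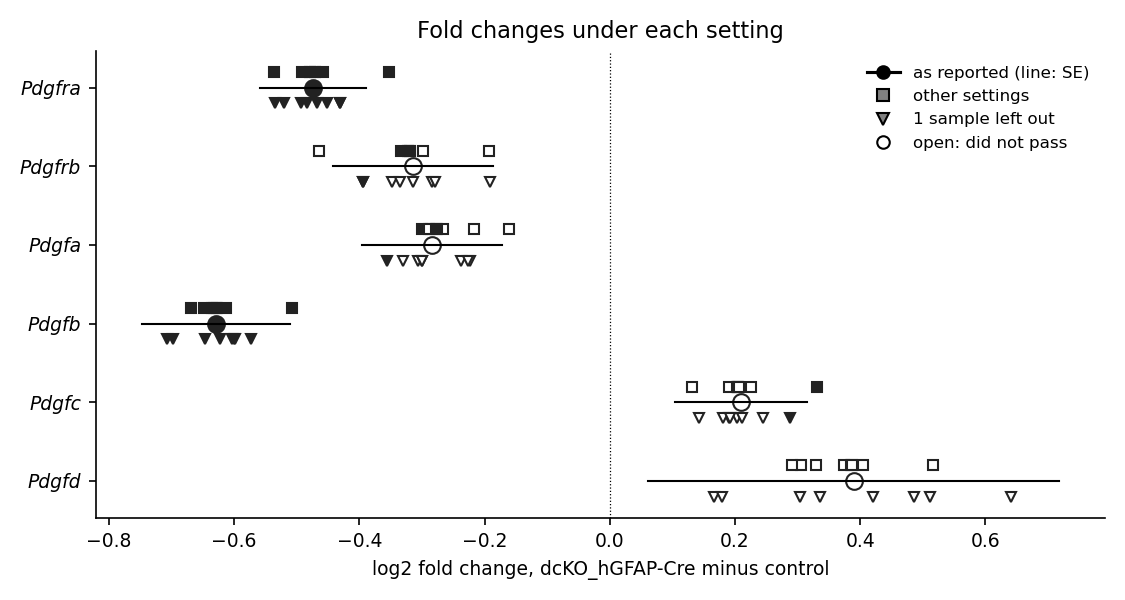
Log2 fold change (horizontal axis, dcKO_hGFAP-Cre minus control) of each member as reported (circle, with its SE), with 1 sample left out (triangles) and in 8 other settings (squares), filled where the adjusted p was under 0.05. Pdgfra and Pdgfb are lower and filled throughout, and no member changes sign.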

How the data were processed

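RNA was extracted by the authors from the P3 cortex of 4 control and 4 dcKO_hGFAP-Cre mice, and libraries were made with the TruSeq RNA kit. Per the methods and labels, reads were aligned to mm10 and counted per gene with featureCounts, and the authors deposited raw counts with no normalization. The aligner, annotation, strand setting and rule for multi-mapped reads are not given in the sources used here. Of 48709 identifiers, 48349 were matched to GENCODE gene models of the same build, from which coordinates and exon lengths were taken.

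Counts were tested with edgeR 4.0.16 (R 4.3.3): TMM factors, filterByExpr with a minimum count of 10, robust quasi-likelihood F test with no block, and Benjamini-Hochberg adjustment over 16525 genes, with a threshold of 0.05. The study used DESeq2, which was run as an alternative (version 1.42.0). SEs were taken from the fold change and F statistic. Within-sample differences were of log2 CPM (prior count 2), with exact two-sided permutation tests over 70 arrangements, adjusted over 8 pairs. The fit was tested on simulated data. No pair of replicates agreed within counting noise. The methods give 4 control and 4 mutant dTel, and each sample was counted as 1 replicate. Depth limits rare genes, since counts carry counting error.

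The members, lists, pairs and alternatives were chosen with earlier results of these data known. Besides the members, the text names the deleted genes, up to 4 called genes per list and direction by size of fold change, the pair partners, neighbours and nearest profiles. Some genes that this rule names are not reported here individually. Plat and the genes overlapping members were named after their values were seen. Other settings were DESeq2, its size factors, library totals, no filter, a filter of 10 counts in each sample, lane or replicate number as a term, each sample left out, and, chosen after seeing the data, mutant replicates 1 and 2 left out.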

Additional observations from a re-analysis of the deposited data

Results flagged for a closer look

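Of 28 groups of 4 samples checked for a sample far from the others (the CPM of 6 genes and the within-sample differences of 8 pairs, in each genotype), 2 had one, where chance gives about 1.4. Both concern Pdgfra minus Pdgfrb on the log2 CPM scale. In control, replicate 3 was lowest at 1.82, with a gap to the next sample of 0.850 of the group's range. In dcKO_hGFAP-Cre, replicate 4 was highest at 2.10, with a gap of 0.945 of the range. Leaving out each sample in turn, the change of this difference between genotypes lay between -0.24 and -0.12.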

How the results depend on the processing

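Pdgfra and Pdgfb were lower with an adjusted p under 0.05 in all settings tried, with log2 fold changes of -0.54 to -0.43 and -0.71 to -0.57 when 1 sample was left out. Pdgfrb did not pass as reported but did with DESeq2 (-0.33, adjusted p = 0.0463), with no filter on low counts (-0.32, adjusted p = 0.0411), with the replicate block (-0.32, adjusted p = 0.0271) and with the lane as a term (-0.32, adjusted p = 0.0166). Pdgfa passed with DESeq2 (-0.30, adjusted p = 0.0442) and the lane term (-0.28, adjusted p = 0.0413), and Pdgfc with library totals (0.33, adjusted p = 0.0254). With 1 sample left out, Pdgfrb ranged from -0.39 to -0.19 (passing without control replicate 4 or mutant replicate 1), Pdgfa from -0.36 to -0.22 (passing without control replicate 1), Pdgfc from 0.14 to 0.29 (passing without mutant replicate 4) and Pdgfd from 0.17 to 0.64 (never passing). Of 342 alternative values, 312 stayed on the same side of the threshold, near the reported count or within the spread between replicates, among them Pdgfc minus Pdgfd, whose sign turned as given below, and 0 reversed a call. The cause of the other changes was not tested.

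Relay genes lower numbered 7 with the replicate block and 5 to 12 with 1 sample left out, and relay genes higher numbered 1 with at least 10 counts in every sample and 0 to 1 with 1 sample left out. With library totals, the relay had 3 lower and 1 higher, genes at the receptors 7 lower, and processing genes 1 lower and 1 higher. Without mutant replicates 1 and 2, a fit with fewer samples, 1581 genes were lower and 1388 higher in all, 3 relay genes and 1 processing gene were lower, and 0 related receptors were higher. Per kilobase of the longest transcript, control levels were 19.8 for Pdgfra, 18.0 for Pdgfa, 6.34 for Pdgfrb, 6.02 for Pdgfb and 5.17 for Pdgfc.

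Samples with the same replicate number share a sequencing lane, but nothing in the sources says that they are otherwise related. Deviations of same-numbered samples had correlations of 0.17, -0.07, 0.21 and -0.02, and 1 of 4 matched its own number best. In the replicate block, the pair differences were unchanged by construction, and 4 pairs cannot give a p under 0.125. Pdgfc minus Pdgfd, which passed no test, went from -0.27 to 0.15 with 1 sample left out, and was positive without mutant replicate 1 or 3 or control replicate 1 or 3. Low counts limit Pdgfd.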
